A study of Mus musculus with 2 samples.

Results

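Ligands, receptors and decoys of the interleukin 1 family were followed through every cell class of 4T1 tumours. The 10 genes were taken by symbol from the 32285 of the deposited feature table, and each was found once. They are the agonists Il1a and Il1b, the receptor antagonist Il1rn, the signalling receptor Il1r1, the decoy receptor Il1r2, the co-receptor Il1rap, the ligand Il18 with its soluble inhibitor Il18bp, and the ligand Il33 with its receptor Il1rl1. The tumours came from 4T1 cells, a mouse mammary carcinoma line, injected into the mammary fat pad in Matrigel. For 18 days mice received beta-elemene, a sesquiterpene of plant origin, at 30 mg/kg by daily intraperitoneal injection, or normal saline as vehicle. Mouse strain, sex, age and the number of mice behind a library are not given in the sources used here. Each group was 1 single-cell library made from dissociated tumour after red cell lysis, so no difference below has a replicate check and no test across mice was made.

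Interleukin 1 alpha and interleukin 1 beta bind the receptor IL1R1, which pairs with IL1RAP and signals through MYD88 to NF-kB. The antagonist IL1RN binds the same receptor without signalling, and IL1R2 binds ligand but lacks the signalling domain. Interleukin 1 beta and interleukin 18 are made as precursors that caspase-1 cuts in inflammasomes, whereas interleukin 33 is a nuclear protein released on damage that acts through ST2, the product of Il1rl1. RNA counts show none of the cutting, release or binding.

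The beta-elemene library held 11539 barcodes and 157282740 unique molecular identifiers (UMIs), and the vehicle library 11324 barcodes and 168750895 UMIs. Filters kept 10546 cells with beta-elemene, at a median of 10352 UMIs, and 10465 with vehicle, at 12473. The libraries shared 37 barcodes, 28 of them among kept cells. Cells were clustered with the 10 members left out of the variable genes and named from marker lists, so every class name below means cells like that type (neutrophil-like and so on). Comparisons cover the 8 classes for which both libraries held 100 or more cells. With beta-elemene and vehicle, they held 1777 and 1123 neutrophils, 559 and 475 monocytes, 3054 and 2925 macrophages, 110 and 109 dendritic cells, 643 and 587 T and NK cells, 3302 and 4095 malignant cells, 647 and 656 fibroblasts and 196 and 198 endothelial cells. Levels are UMIs of a gene per 1000000 UMIs of the class and library (CPM). Ratios are beta-elemene over vehicle, with exact 95% intervals that cover counting error only.

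A member counted as measured in a class with at least 50 UMIs over both libraries, and was called higher or lower when the ratio reached 1.5-fold with an interval that did not hold 1. Of 60 measured pairs of member and class, 5 were called higher and 11 lower. The same rule called 2.17% of all measured genes in these classes higher and 3.99% lower, 6.17% in either direction. Intervals lay above 1 in 19 pairs and below 1 in 24, against 15.4% and 16.1% over all measured genes. By class, and beside the same share of all measured genes there, the calls were as follows. Neutrophils had 1 of 7 measured members higher (1.49%) and 0 lower (3.79%), and monocytes 2 of 8 higher (2.08%) and 1 lower (3.18%). Macrophages had 0 of 10 called (1.01% higher and 2.72% lower). Dendritic cells had 1 of 5 higher (3.4%) and 1 lower (5.62%), and T and NK cells 1 of 6 higher (3.05%) and 3 lower (2.99%). No member was called higher in malignant cells (1.42%), fibroblasts (2.42%) or endothelial cells (4.19%), and 2 of 10 (6.98%), 2 of 10 (3.37%) and 2 of 4 (2.45%) were called lower there.

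**Figure D1:**
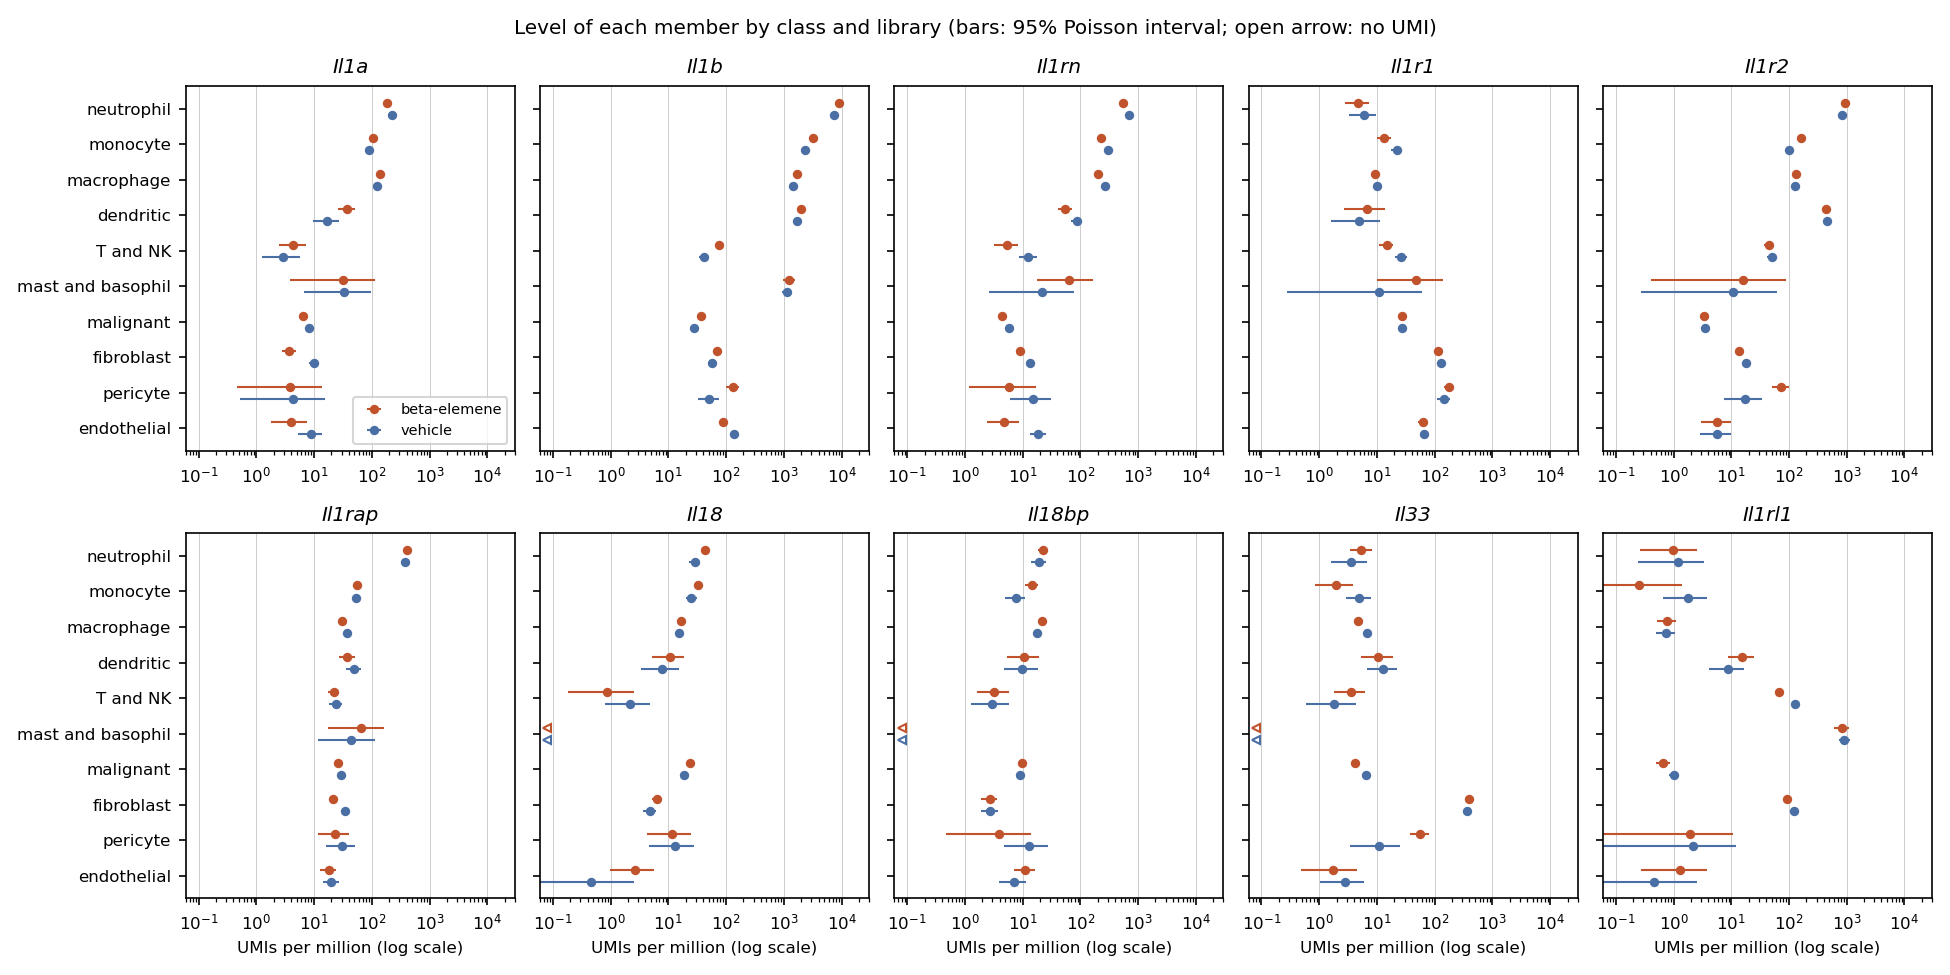
Level of each member in UMIs per 1000000 UMIs, on a log axis, in 10 classes of cells (beta-elemene red, vehicle blue, bars 95% Poisson intervals, open arrows no UMI). Il1b, Il1rn and Il1r2 are highest in neutrophils, Il33 in fibroblasts and Il1rl1 in mast and basophil cells.

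**Figure D2:**
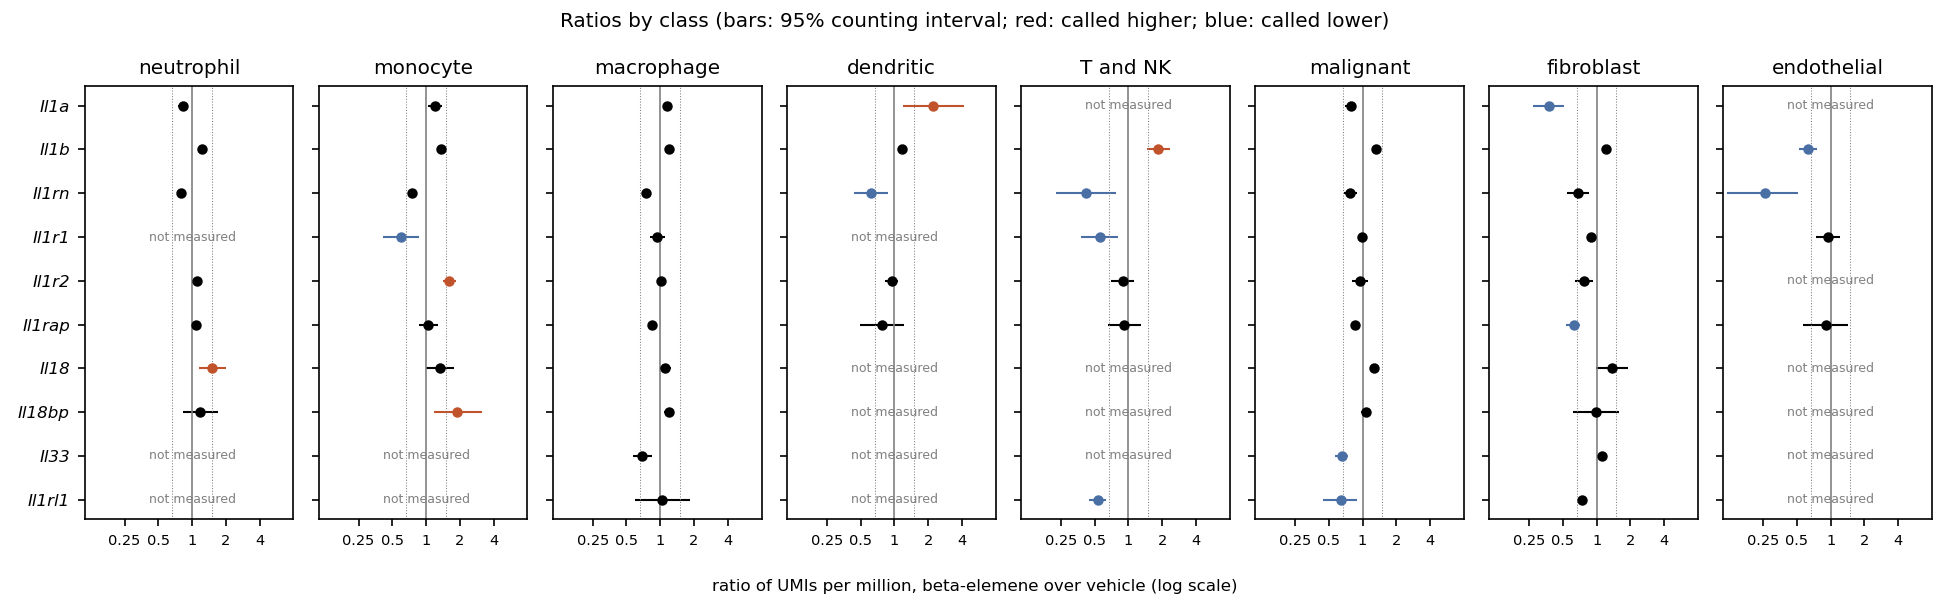
Ratio of beta-elemene over vehicle, on a log axis, for each member in the 8 compared classes, with 95% counting intervals and dotted lines at 1.5-fold. Il1rn lies left of 1 in all 8 classes and Il1b right of 1 in 7. Of all measured genes, from 40.0% (endothelial cells) to 55.4% (malignant cells) had a ratio below 1, by class.

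Il1b (ENSMUSG00000027398) and Il1rn (ENSMUSG00000026981) lie on chromosome 2, at chr2:129364570-129371139 on the minus strand and chr2:24336853-24351494 on the plus strand (GRCm38, GENCODE vM21). Their promoter windows are shown because agonist and antagonist differed in opposite directions in the same cells. The windows are RefSeq sequence of GRCm38.p6, 5′ to 3′ along the gene, from 250 bases before the start to 50 after. Capitals mark TATAAA, the TATA box, and GGG, any 5 bases and CC, a short form of the NF-kB motif, on either strand.
Il1b, chr2:129371090-129371389, minus strand: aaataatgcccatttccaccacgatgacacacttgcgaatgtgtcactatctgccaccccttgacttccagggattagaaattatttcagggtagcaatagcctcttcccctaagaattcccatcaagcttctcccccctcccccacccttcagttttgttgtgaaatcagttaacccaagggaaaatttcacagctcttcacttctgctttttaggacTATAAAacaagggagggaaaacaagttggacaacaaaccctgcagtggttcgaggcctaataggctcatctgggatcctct
Il1rn first start, chr2:24336610-24336909, plus strand: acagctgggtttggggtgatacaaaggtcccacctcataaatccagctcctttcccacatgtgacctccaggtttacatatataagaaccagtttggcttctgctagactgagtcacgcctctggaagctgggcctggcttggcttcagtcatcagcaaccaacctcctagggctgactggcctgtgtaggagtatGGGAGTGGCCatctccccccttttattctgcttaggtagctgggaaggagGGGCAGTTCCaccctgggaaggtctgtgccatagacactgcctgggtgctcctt
Il1rn later start, chr2:24345121-24345420, plus strand: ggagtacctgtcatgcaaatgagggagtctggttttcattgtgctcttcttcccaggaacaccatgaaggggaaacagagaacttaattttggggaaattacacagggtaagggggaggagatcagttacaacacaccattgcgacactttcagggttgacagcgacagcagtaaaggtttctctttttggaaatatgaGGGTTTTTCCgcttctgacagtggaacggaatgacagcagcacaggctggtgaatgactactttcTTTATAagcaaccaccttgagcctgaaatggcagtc
TATAAA occurred in 13.6% of the 32851 windows of the table and in 6 of the members' 15. The Il1b match began 31 bases before the start, and the later Il1rn window holds one on the other strand, 14 bases after it. The NF-kB form occurred in 50.8% of all windows and in 5 of the 15, among them both Il1rn windows shown. Another Il1rn window, chr2:24345041-24345340, not shown, overlaps the later one. It holds the same NF-kB site, which is thus counted in both. Also searched, and not in capitals, were AP-1 (TGANTCA, 7.81% of all windows and 2 of the 15), C/EBP (TTGC, any 2 bases and AA, 10.8% and 4) and PU.1 (GAGG followed by AAGT, 3.2% and 0). Such matches describe the letters only, and 3′ counts do not show which start of Il1rn was used.

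Il1b, the main secreted agonist, was most abundant in neutrophils. They had 9111 CPM with beta-elemene and 7448 CPM with vehicle (1.22, 1.20 to 1.24). Monocytes had 3202 CPM with beta-elemene and 2371 CPM with vehicle (1.35, 1.31 to 1.39). Macrophages had 1724 and 1444 CPM (1.19, 1.18 to 1.21) and dendritic cells 1969 and 1691 CPM (1.16, 1.09 to 1.24), with beta-elemene and vehicle. Il1b was thus higher with beta-elemene in all 4 myeloid classes, by less than 1.5-fold, and was called in none. Of the 10 myeloid clusters of at least 50 cells, the Il1b interval lay above 1 in 7 and below 1 in 1. The latter was dendritic cluster 36 (Ccl22, Ccl17, Ccr7). The same shares over all genes were not computed by cluster. With each cell thinned to 1000 UMIs, 90.5% with beta-elemene and 89.6% with vehicle of neutrophils had an Il1b UMI, against 91.4% and 90.6% unthinned. Thinning left out 191 and 128 neutrophils, 5 and 5 monocytes, 75 and 50 macrophages and 76 and 68 malignant cells that were shallower. In monocytes the thinned shares were 72.4% and 61.9% (unthinned 90.3% and 84.8%), and in macrophages 55.1% and 53.5% (unthinned 81.0% and 81.3%). Malignant cells, the class with the lowest level, gave 3.38% and 2.66% (unthinned 37.7% and 32.0%), at a median of 21105 and 20441 UMIs a cell.

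Il1rn, the antagonist, was lower with beta-elemene in the same classes. Neutrophils had 557 CPM with beta-elemene and 699 CPM with vehicle (0.796, 0.748 to 0.848), monocytes 227 and 302 CPM (0.751, 0.687 to 0.822) and macrophages 201 and 268 CPM (0.751, 0.729 to 0.774). Dendritic cells, with 54.1 CPM with beta-elemene and 86.7 CPM with vehicle, were called lower (0.624, 0.438 to 0.882) on 56 and 88 UMIs, of which 1 cell held 37.5% and 23.9%. The thinned share of cells with an Il1rn UMI was 35.8% with beta-elemene and 42.1% with vehicle in neutrophils, 17.5% and 24.9% in monocytes and 16.2% and 21.4% in macrophages. In malignant cells it was 0.465% and 0.695%.

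Set against each other, Il1rn UMIs per 100 Il1b UMIs were 6.11 and 9.39 in neutrophils with beta-elemene and vehicle. They were 7.08 and 12.7 in monocytes, 11.7 and 18.6 in macrophages and 2.75 and 5.13 in dendritic cells. This quotient does not depend on the class total. The counting intervals of the libraries did not overlap in any of these 4 classes. How often that holds for other pairs of genes was not computed, and the intervals cover counting error only.

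Clusters within the myeloid classes differed in level more than the libraries did. Neutrophil cluster 4 (led by S100a9, G0s2 and S100a8) had 11605 CPM with beta-elemene and 9662 CPM with vehicle of Il1b (1.20, 1.18 to 1.22) and 416 and 588 CPM of Il1rn (0.708, 0.648 to 0.773). Neutrophil cluster 7 (Cstdc4, S100a9 and Stfa2l1, with Ccl3 and Hcar2) had less agonist, 5373 and 4589 CPM, and more antagonist, 938 and 1121 CPM. Among macrophages, cluster 1 (Apoe, Cd74, C1qb) had 2032 and 1768 CPM of Il1b and 232 and 285 CPM of Il1rn. Cluster 5 (Arg1, Mmp12, Pf4) had 1834 and 1538 CPM of Il1b and 208 and 304 CPM of Il1rn (0.686, 0.649 to 0.725). Cluster 9 (Ccl8, Selenop and Wfdc17, with Cd163 and Lyve1) had the least Il1b of the macrophage clusters, 333 CPM with beta-elemene and 223 CPM with vehicle (1.49, 1.38 to 1.62), and its Il1rn was called lower at 122 and 193 CPM (0.632, 0.567 to 0.704). Cluster 17, shallow at a median of 1960 UMIs, stood apart, with 495 and 559.8 CPM of Il1b (0.885, 0.745 to 1.05) and 83.5 and 85.7 CPM of Il1rn (0.975, 0.627 to 1.55). The name of cluster 5 depends on a setting of the naming step, and without it the macrophage ratios were 1.20 for Il1b and 0.791 for Il1rn.

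**Figure D3:**
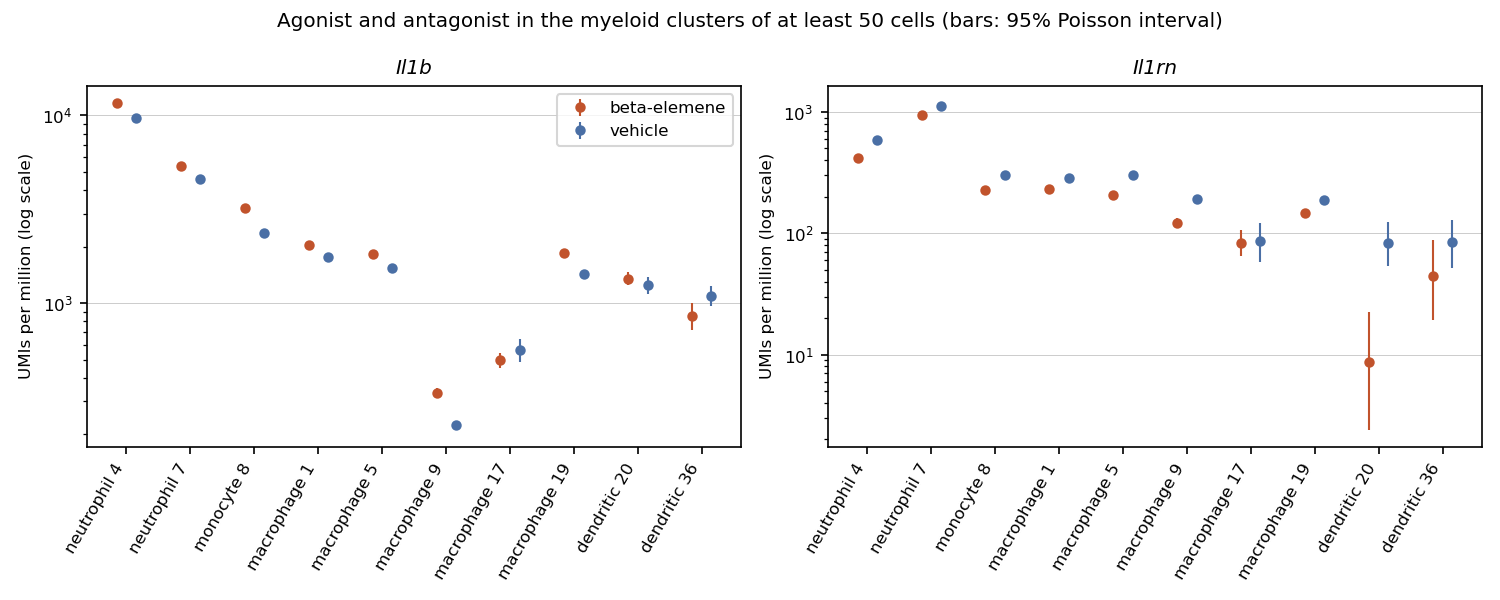
Il1b (left) and Il1rn (right) in CPM, on log axes, in the 10 myeloid clusters of at least 50 cells (beta-elemene red, vehicle blue, bars 95% Poisson intervals). Il1b is higher with beta-elemene in 8 of the 10, all but macrophage 17 and dendritic 36. Il1rn is lower in all 10, with overlapping bars in macrophage 17 and dendritic 36. Such shares over all genes were not computed by cluster.

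In the other compared classes both genes were low, and markers of myeloid cells were detected beside them. Malignant cells had 36.3 CPM with beta-elemene and 27.4 CPM with vehicle of Il1b (1.33, 1.26 to 1.40) and fibroblasts 69.9 and 57.1 CPM (1.22, 1.12 to 1.34). The 12 neutrophil markers, all detected, summed to 257 CPM with beta-elemene and 129 CPM with vehicle in malignant cells and to 428 and 145 CPM in fibroblasts, and the 12 macrophage markers to 304 and 281 CPM and to 579 and 690.0 CPM. Their part in the result was not tested. Malignant sub-cluster 9, 77 and 149 cells led by S100a9, S100a8, Srgn and Il1b, held 1180 of the class's Il1b UMIs with beta-elemene and 809 with vehicle, and without it malignant cells had 22.4 and 19.3 CPM (1.16, 1.08 to 1.24) of Il1b and 3.17 and 4.42 CPM (0.716, 0.608 to 0.841) of Il1rn. Without sub-clusters that carry another lineage's markers, fibroblast Il1b was 33.6 and 20.0 CPM (1.68, 1.43 to 1.98), called higher. Both levels lay below those of malignant cells as a class, the lowest of the compared classes for Il1b. In the same setting fibroblast Il1rn, on 61 and 78 UMIs, was not called (0.775, 0.545 to 1.098), with an interval that holds 1. In the whole fibroblast class its ratio was 0.682 (0.543 to 0.855).

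T and NK cells were called higher for Il1b, with 75.3 CPM with beta-elemene and 40.8 CPM with vehicle (1.85, 1.47 to 2.33), of which 1 cell held 21.8% and 16.2%. They were called lower for Il1rn, with 5.28 and 12.5 CPM (0.422, 0.225 to 0.769) on 18 and 34 UMIs. Neutrophil markers there summed to 436 CPM with beta-elemene and 1104 CPM with vehicle and macrophage markers to 452 and 581 CPM, all 12 of each being detected. Thinned, 4.02% and 3.60% of them had an Il1b UMI. Without sub-clusters that carry another lineage's markers, Il1b was 60.2 and 27.7 CPM (2.18, 1.62 to 2.95), and Il1rn, with 13 and 30 UMIs, was not measured. With called doublets kept the Il1b ratio was 0.934. Endothelial cells were called lower for Il1b, at 87.6 and 139 CPM (0.631, 0.525 to 0.757), and for Il1rn, at 4.82 and 18.6 CPM (0.259, 0.120 to 0.515). A sub-cluster of 8 and 12 endothelial cells led by Lyz2, Il1b and Ccl8 held 151 of 200 Il1b UMIs with beta-elemene and 252 of 299 with vehicle. Without it, endothelial Il1b was 23.3 and 24.8 CPM (0.941, 0.617 to 1.43), not called, and Il1rn was 4.28 and 4.75 CPM (0.902, 0.317 to 2.57) on 9 and 9 UMIs, too few to be measured.

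By source, macrophages held 52.1% with beta-elemene and 62.0% with vehicle of the Il1b UMIs and neutrophils 31.2% and 21.8%. Neutrophils were 16.9% of kept cells with beta-elemene and 10.7% with vehicle, and macrophages 29.0% and 28.0%. Il1rn UMIs divided likewise, 65.2% and 71.3% in macrophages and 20.5% and 12.7% in neutrophils. The shares of cells rest on 1 dissociation per group.

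**Figure D4:**
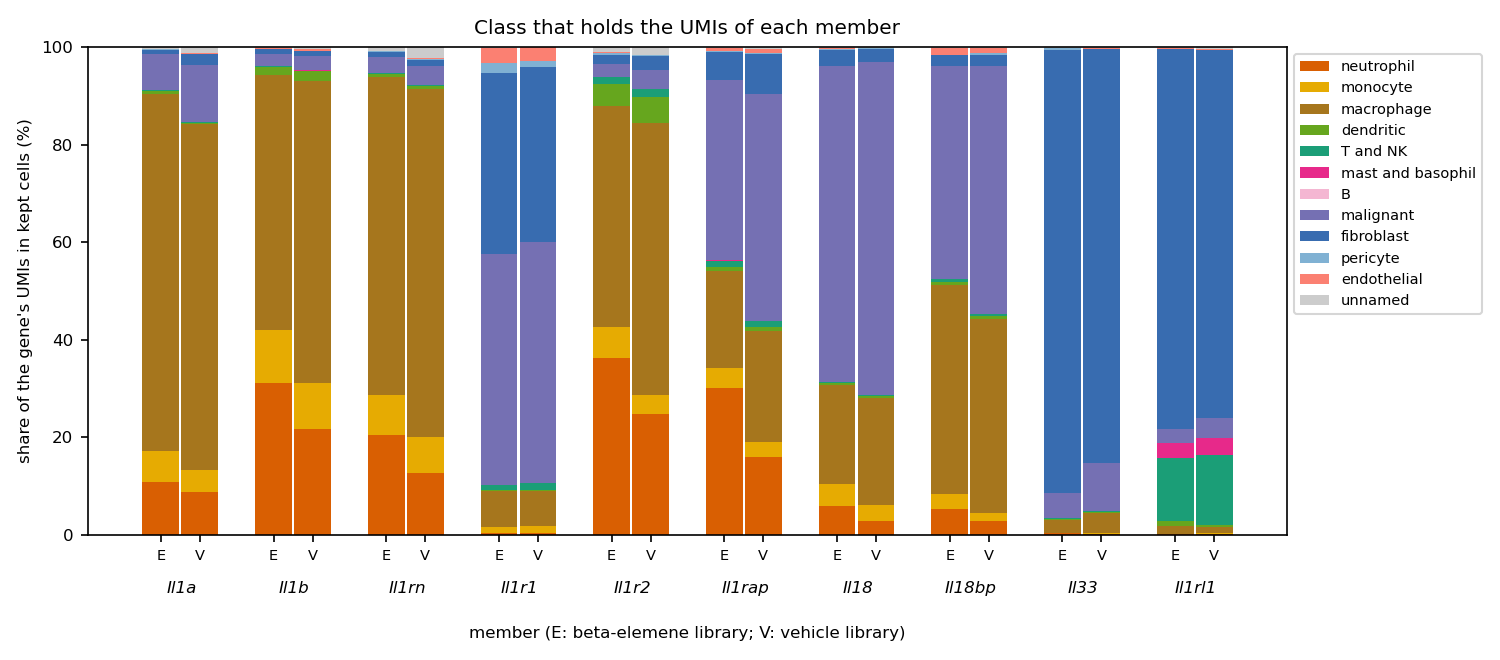
Share of each member's UMIs in kept cells, in %, by class, with the beta-elemene library (E) left of the vehicle library (V). Myeloid classes fill most of the Il1a, Il1b, Il1rn and Il1r2 bars, and fibroblasts the Il33 and Il1rl1 bars. Malignant cells, the largest class, hold the largest piece of Il1r1, Il1rap, Il18 and Il18bp. For Il18bp with beta-elemene that piece is 43.5%, beside 42.8% in macrophages. In CPM, Il1rap, Il18 and Il18bp are highest in neutrophils.

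Il1a (ENSMUSG00000027399, chr2:129299610-129309972, minus strand), the agonist that needs no cutting to be active, was a minor transcript beside Il1b. Il1a UMIs per 100 Il1b UMIs were 2.03 and 2.99 in neutrophils and 8.15 and 8.52 in macrophages, with beta-elemene and vehicle. Macrophages held 73.2% with beta-elemene and 70.8% with vehicle of its UMIs, at 141 and 123 CPM (1.14, 1.10 to 1.19). Among macrophage clusters it was highest in cluster 5, led by Arg1, at 223 CPM with beta-elemene and 183 CPM with vehicle (1.22, 1.15 to 1.29). Neutrophils had 185 and 222 CPM (0.832, 0.745 to 0.929). In dendritic cells Il1a was called higher, at 36.7 and 16.8 CPM (2.19, 1.21 to 4.14), on 38 and 17 UMIs, of which 1 cell held 28.9% and 41.2%, and the ratio was 0.930 at a finer clustering. In fibroblasts it was called lower, at 3.69 and 9.87 CPM (0.374, 0.269 to 0.514). A fibroblast sub-cluster led by S100a9 and Lyz2 held 33 of those 55 UMIs with beta-elemene and 79 of 142 with vehicle.

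Il1r1 (ENSMUSG00000026072, chr1:40225080-40317257, plus strand), the signalling receptor, was highest in stromal cells. Fibroblasts had 113 CPM with beta-elemene and 126 CPM with vehicle (0.894, 0.836 to 0.956) and endothelial cells 61.8 and 65.0 CPM (0.950, 0.747 to 1.21). Pericytes, too few to compare at 46 and 45 cells, had 178 and 143 CPM. Malignant cells had 26.6 and 26.7 CPM (0.997, 0.941 to 1.06), an interval that holds 1, and as the largest class carried 47.3% and 49.4% of all Il1r1 UMIs. Fibroblast cluster 13 (Dcn, Col3a1, Fstl1) had 162 and 202 CPM (0.803, 0.738 to 0.874), above cluster 11 (Tagln, Timp1, Tnc) at 70.6 and 81.0 CPM (0.871, 0.779 to 0.973).

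Il1r1 was called lower in monocytes, at 13.1 and 22.0 CPM (0.598, 0.413 to 0.862), and in T and NK cells, at 14.7 and 26.5 CPM (0.554, 0.378 to 0.806). The monocyte ratio was 1.01 at a finer clustering. The T and NK ratio was 0.707 with called doublets kept and 0.691 by the mean over cells, called in neither. In T and NK cells, 31 of 50 UMIs with beta-elemene and 66 of 72 with vehicle came from 17 and 18 cells of an unnamed sub-cluster led by Il23r and Zbtb16, with Il1r1 itself, Il17a and Trdc among its leading genes. Its level was 427 CPM with beta-elemene and 559.8 CPM with vehicle (0.764, 0.482 to 1.19), above that of every class in each library.

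Il1r2 (ENSMUSG00000026073, chr1:40074079-40125231, plus strand), the decoy, had the opposite distribution. Neutrophils had 927 CPM with beta-elemene and 840.2 CPM with vehicle (1.10, 1.05 to 1.16), beside 4.66 and 5.87 CPM of Il1r1. Dendritic cells had 439 and 464 CPM, macrophages 131 and 129 CPM (1.02, 0.980 to 1.06) and monocytes 160.2 and 100.2 CPM, called higher (1.60, 1.40 to 1.83). The monocyte ratio was 1.46 with the stricter cell filter, 1.23 at a finer clustering and 1.41 by the mean over cells, called in none of these. In malignant cells there were 12.8 and 13.3 Il1r2 UMIs per 100 of Il1r1, and in fibroblasts 12.2 and 14.0. ILC2-like cells, 37 with beta-elemene and 35 with vehicle, carried 337 and 300.0 CPM of Il1r2 (1.12, 0.780 to 1.63).

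Il1rap (ENSMUSG00000022514, chr16:26581704-26730117, plus strand), the co-receptor of IL1R1 and ST2, was measured in all 8 classes. It stood at 410.2 CPM with beta-elemene and 376 CPM with vehicle in neutrophils (1.09, 1.01 to 1.18), 31.0 and 36.8 CPM in macrophages (0.842, 0.777 to 0.912) and 25.5 and 29.9 CPM in malignant cells (0.854, 0.807 to 0.905). It was called lower in fibroblasts, at 21.3 CPM with beta-elemene and 34.3 CPM with vehicle (0.622, 0.539 to 0.718). The ratios of fibroblast clusters 11 and 13 were 0.621 and 0.614, and without sub-clusters carrying other markers the class had 20.6 and 34.9 CPM (0.590, 0.503 to 0.692).

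Il18 (ENSMUSG00000039217, chr9:50554827-50581840, plus strand) and its inhibitor Il18bp (ENSMUSG00000070427, chr7:102014885-102018690, minus strand) were low throughout. Malignant cells held 64.8% with beta-elemene and 68.3% with vehicle of Il18 UMIs, at 23.9 and 18.8 CPM (1.27, 1.19 to 1.35). Neutrophils were called higher for Il18, at 43.1 and 28.6 CPM (1.51, 1.14 to 2.01) on 176 and 73 UMIs, a ratio at the limit of the call that lost it in 3 settings, at 1.39 by the mean over cells. For Il18bp, monocytes were called higher, at 14.4 and 7.62 CPM (1.89, 1.17 to 3.13) on 58 and 26 UMIs, but not at a finer clustering (1.54), and macrophages had 21.2 and 17.8 CPM (1.20, 1.08 to 1.33). Il18bp overlaps Numa1 on the other strand, which had 7449 UMIs with beta-elemene and 7900 with vehicle, and Il1a, Il1b, Il1r2, Il1rap and Il18 overlap antisense genes too. The strand setting of the counting is not given in the sources used here, so reads of such partners may not be told apart. Il1r1 and Il1r2 each also overlap a gene on their own strand that the feature table does not hold.

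Il33 (ENSMUSG00000024810, chr19:29925114-29960718, plus strand) was a fibroblast transcript. Fibroblasts had 396 CPM with beta-elemene and 357 CPM with vehicle (1.11, 1.07 to 1.15) and held 90.9% and 84.8% of its UMIs. Thinned, 26.5% with beta-elemene and 23.8% with vehicle of fibroblasts had an Il33 UMI (unthinned 76.7% and 71.2%), beside 0.310% and 0.447% of malignant cells. Cluster 11 (Tagln, Timp1, Tnc) had 472 and 396 CPM (1.19, 1.14 to 1.248) and cluster 13 (Dcn, Col3a1, Fstl1) 308 and 292 CPM (1.05, 0.986 to 1.12). Sub-cluster 8 (Cryab, Pgf, Krt19) was highest, at 1399 CPM with beta-elemene and 948 CPM with vehicle (1.48, 1.34 to 1.63). Sub-clusters 5 (Saa3, Cxcl5) and 7 (Lpl, Apod) were called higher, at 419.8 and 262 CPM (1.60, 1.39 to 1.84) and at 606 and 398 CPM (1.52, 1.34 to 1.73). Malignant cells as a class were called lower, at 4.16 and 6.40 CPM (0.651, 0.568 to 0.745), with many of the UMIs in 1 small cluster. Malignant cluster 23 (Ptn, Krt19, Prlr), 40 and 70 cells, held 136 of those 335 UMIs with beta-elemene and 363 of 601 with vehicle, at 158 and 328 CPM (0.482, 0.393 to 0.589). The ratio of malignant cells without cluster 23 was not computed, so the call is not shown to hold for the other malignant cells. The markers that named it are epithelial and do not tell 4T1 cells from host mammary epithelium. Malignant sub-cluster 12, also led by Ptn, Prlr and Krt19, had Xist among its leading genes. In the largest malignant sub-cluster alone the ratio was 0.817, not called.

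Il1rl1 (ENSMUSG00000026069, chr1:40429570-40465415, plus strand) encodes the interleukin 33 receptor ST2, as a membrane form and a soluble form. Both RefSeq start windows are shown because the gene was read in cells as unlike as fibroblasts, mast cells and T cells. Capitals mark AGATAA, a short form of the GATA motif, on either strand.
Il1rl1 first start, chr1:40429320-40429619, plus strand: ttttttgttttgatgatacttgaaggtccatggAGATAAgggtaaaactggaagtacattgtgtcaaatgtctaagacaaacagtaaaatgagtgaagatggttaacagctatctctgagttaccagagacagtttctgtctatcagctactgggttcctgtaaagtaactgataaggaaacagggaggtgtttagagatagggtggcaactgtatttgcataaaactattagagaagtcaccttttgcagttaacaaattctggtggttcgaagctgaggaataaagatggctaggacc
Il1rl1 second start, chr1:40439379-40439678, plus strand: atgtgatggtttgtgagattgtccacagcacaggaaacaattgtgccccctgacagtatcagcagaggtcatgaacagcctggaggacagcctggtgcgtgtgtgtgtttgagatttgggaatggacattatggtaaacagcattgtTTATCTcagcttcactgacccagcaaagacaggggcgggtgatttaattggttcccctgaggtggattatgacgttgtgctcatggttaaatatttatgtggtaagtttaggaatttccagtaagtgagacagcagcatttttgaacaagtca
AGATAA occurred in 11.2% of all windows and in 2 of the members' 15, the pair shown. The counts tell neither the starts nor the membrane and soluble forms apart.

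Mast and basophil cells, 17 and 23 with beta-elemene and vehicle, had the highest Il1rl1 level of any class, 818 and 906 CPM (0.902, 0.624 to 1.29). T and NK cells were called lower, at 66.5 CPM with beta-elemene and 125 CPM with vehicle (0.531, 0.447 to 0.630). Among them, Treg-like cells had 436 and 611 CPM (0.714, 0.553 to 0.919), ILC2-like cells 337 and 582 CPM, called lower (0.579, 0.426 to 0.786), and conventional CD4 T-like cells 77.0 and 77.9 CPM (0.988, 0.581 to 1.69). Fibroblasts held 77.7% with beta-elemene and 75.4% with vehicle of Il1rl1 UMIs, at 90.9 and 124 CPM (0.735, 0.685 to 0.790). Their cluster 11 was called lower, at 47.4 and 105 CPM (0.452, 0.400 to 0.510), and cluster 13 had 141 and 155 CPM (0.912, 0.830 to 1.00). Fibroblast sub-cluster 3 (Ndufa4l2, Fabp5 and Prr9, with Bnip3 and Vegfa) had 48.3 and 184 CPM (0.262, 0.206 to 0.331) on 90 and 397 UMIs, beside 784 and 729 CPM of Il33 (1.08, 1.00 to 1.16). In fibroblasts as a class, Il1rl1 UMIs per 100 Il33 UMIs were 22.9 and 34.6. The malignant call (0.638, 0.448 to 0.901), lost with called doublets kept, by the mean over cells and with free RNA subtracted, rests on 53 and 97 UMIs, at 0.659 and 1.03 CPM.

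**Figure D5:**
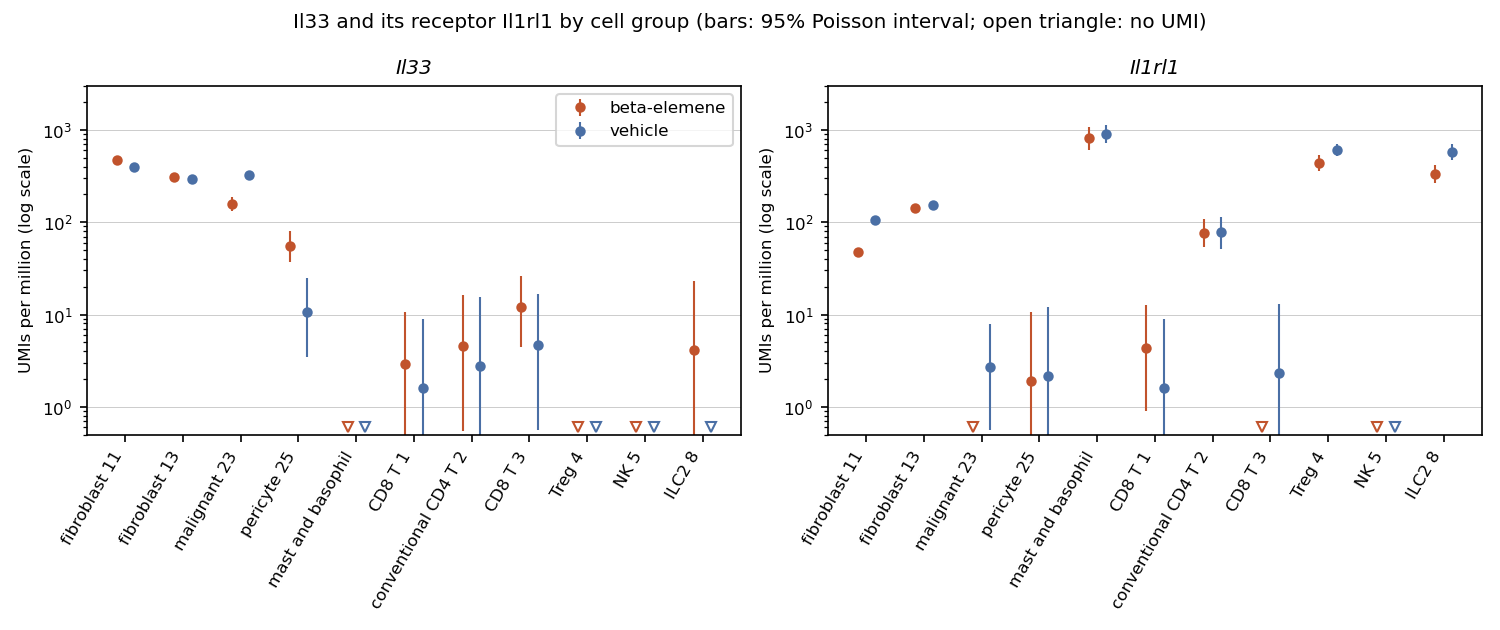
Il33 (left) and Il1rl1 (right) in CPM, on log axes, in fibroblast clusters, malignant cluster 23, pericytes, mast and basophil cells and the named T and NK sub-clusters (beta-elemene red, vehicle blue, bars 95% Poisson intervals, open triangles no UMI). Il33 is highest in the fibroblast clusters and malignant cluster 23, whose epithelial markers do not tell tumour from host cells. Il1rl1 is highest in mast and basophil, Treg and ILC2 cells.

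Other genes of the system were read from lists of its ligands, receptors, inflammasome, adaptors and responsive genes, in which 22 of 410 measured pairs of gene and class were called higher (5.37%) and 34 lower (8.29%), against 2.17% and 3.99% of all measured genes. Of the 33 calls in classes that held sub-clusters carrying another lineage's markers, 23 stood without those (mixed) sub-clusters. For the 10 others the value without them is given beside the call. Among other ligands and receptors, Il1f9 (interleukin 36 gamma) had 424 CPM with beta-elemene and 529 CPM with vehicle in neutrophils and was not called. Il18r1, a chain of the interleukin 18 receptor, was called lower in fibroblasts, 1 of 4 receptors measured there, at 12.8 and 33.2 CPM (0.386, 0.324 to 0.457), was called higher in malignant cells (1.71) at 0.708 and 0.415 CPM, and had 265 and 313 CPM in T and NK cells (0.847, 0.771 to 0.931). Of the inflammasome and release genes, macrophages had 0 called of 16 measured. Neutrophils had Prtn3, a serine protease, higher (2.09) and P2rx7, an ATP-gated channel, lower (0.440), of 13. Monocytes had Aim2, a DNA sensor, higher (1.55), Prtn3 higher (1.78) and Gsdme lower (0.657), of 15. Malignant cells had Pycard, the inflammasome adaptor, lower at 8.82 and 14.9 CPM (0.590, 0.539 to 0.647) and Aim2 lower (0.455), of 15. Nlrp3 was called lower in fibroblasts (0.649) and in endothelial cells (0.323). Without mixed sub-clusters the fibroblast ratio was 0.690, not called, and endothelial Nlrp3 was not measured, with 6 and 7 UMIs. P2rx7 was lower in T and NK cells (0.638) and Txnip was higher in dendritic cells (2.94).

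Of the 22 adaptors, kinases and brakes, 0 of 22 measured were called in macrophages and in fibroblasts. In neutrophils Irak3, a brake on the receptor's kinases, was called lower at 85.8 CPM with beta-elemene and 129 CPM with vehicle (0.666, 0.571 to 0.776), and so was the kinase gene Ikbkb (0.555), of 21. In malignant cells Nfkb1, an NF-kB subunit, was the 1 call of 22, at 430.0 CPM with beta-elemene and 705 CPM with vehicle (0.610, 0.602 to 0.618). Malignant sub-cluster 2, led by Nfkb1 itself, held 315 cells with beta-elemene and 763 with vehicle. Nfkb1 was 1012 and 1172 CPM (0.863, 0.843 to 0.884) in it and 353 and 569 CPM (0.620, 0.611 to 0.630) in the other malignant cells. Dendritic cells had Dusp1 (1.89), Chuk (1.64) and Peli1 (1.58) called higher, of 16. Tollip, an adaptor that restrains the receptor, was lower in monocytes (0.559) and higher in T and NK cells (1.62, and 1.52, not called, without mixed sub-clusters), where the kinase gene Map3k7 was lower (0.634). In endothelial cells Zc3h12a, an RNase that degrades cytokine transcripts, was lower (0.532, and 0.690, not called, without mixed sub-clusters).

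Of the IL-1 responsive genes, fibroblasts had 3 called higher and 4 lower of 20 measured. Saa3, an acute-phase protein, was lower at 1198 CPM with beta-elemene and 2741 CPM with vehicle (0.437, 0.430 to 0.445), as were Cxcl5 (0.364), Csf3 (0.588) and Mmp13, a collagenase, at 4.02 and 36.2 CPM (0.111, 0.0836 to 0.145). Ccl20 (2.44), Cxcl3 (1.66) and Lcn2 (1.62, and 1.33, not called, without mixed sub-clusters) were higher. Endothelial cells had 4 lower of 11, Cxcl2 (0.485), Ccl2 (0.655), Ptgs2 (0.372) and the adhesion gene Sele (0.663), with Lcn2 higher (2.02). Malignant markers there summed to 439 CPM with beta-elemene and 119.8 CPM with vehicle and neutrophil markers to 383 and 230.4 CPM, and their part in these calls was not tested. Without the 8 and 12 cells led by Lyz2 and Il1b, Cxcl2 (0.366), Ccl2 (0.543), Sele (0.620) and Lcn2 (2.22) were still called, and Ptgs2 was not measured, with 13 and 11 UMIs. Malignant cells had Lcn2, a lipocalin, higher at 729 CPM with beta-elemene and 424 CPM with vehicle (1.72, 1.70 to 1.74) and Cxcl5 higher (3.23), with Has1 lower (0.469), of 19. The neutrophil chemokine Cxcl3 was higher in neutrophils, at 925 CPM with beta-elemene and 466 CPM with vehicle (1.98, 1.86 to 2.12), and lower in monocytes, at 103 and 186 CPM (0.556, 0.490 to 0.630). Cxcl3 is also among the neutrophil markers. Monocytes and dendritic cells had Il6 higher (4.74 and 2.81), macrophages Csf3 lower (0.646, and 0.758, not called, without mixed sub-clusters), and dendritic cells Cxcl2 higher (2.53) and Lcn2 lower (0.177). In dendritic cells neutrophil markers summed to 665 CPM with beta-elemene and 390.2 CPM with vehicle, malignant markers to 165 and 460.2 CPM and macrophage markers to 557 and 788 CPM, and their part in the dendritic values was not tested. T and NK cells had Cxcl2 (1.503) and Lcn2 (1.73) higher and Lif (0.323), Csf2, Ptgs2 (0.557) and Saa3 (0.493) lower. Of these, Cxcl2 (1.15), Lcn2 (1.38) and Saa3 (0.676) were not called without mixed sub-clusters. The list's median log2 ratio, with that over all measured genes in brackets, was -0.09 (-0.03) in neutrophils, -0.00 (-0.03) in monocytes, -0.03 (-0.02) in macrophages, 0.24 (-0.03) in dendritic cells, -0.38 (-0.00) in T and NK cells, -0.05 (-0.03) in malignant cells and -0.15 (0.04) in fibroblasts. In endothelial cells it was -0.58 (0.07). Of the output cytokines of interleukins 18 and 33, T and NK cells had Ifng lower, at 59.2 CPM with beta-elemene and 153 CPM with vehicle (0.388, 0.327 to 0.460), and Csf2 lower (0.359), of 5 measured. Areg, an EGF receptor ligand, was lower in neutrophils (0.659) and monocytes (0.533) and higher in dendritic cells (2.16). Il4 was called lower in malignant cells (0.470) at a very low level. Without sub-cluster 9 they had 0.412 CPM with beta-elemene and 0.889 CPM with vehicle of Il4, on 32 and 81 UMIs.

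In macrophages 52.7% and 60.3% of cells with beta-elemene and vehicle held UMIs of both Il1b and Il1rn, where the products of the separate shares were 47.9% and 55.6%. In fibroblasts Il33 and Il1rl1 occurred together in 28.6% and 28.2% of cells, where the products were 25.4% and 24.6%. The shares were not thinned to equal depth. Over the 33 clusters of at least 50 cells, the genes whose log2(CPM + 1) had the highest Pearson r with Il1b were Nlrp3 (0.94), Spi1 (0.93), Mcemp1 (0.92). With Il1a they were Cd300lb (0.93), Cnr2 (0.93), Pkd1l2 (0.91) and with Il1r2 Snx20 (0.91), Cd80 (0.91), Cdkn1a (0.90). With Il33 they were Dcn (0.77), Epb41l3 (0.77), Gfpt2 (0.76) and with Il1rl1 Dkk3 (0.77), Ficd (0.75), Penk (0.74). With Il1r1 they were Slc39a13 (0.80), Hoxa9 (0.79), Arhgap29 (0.77), with Il1rap Fbxl5 (0.92), Nnat (0.89), Msra (0.89), with Il18 Cstb (0.74), Cpne2 (0.69), Tcp11l1 (0.69) and with Il18bp Pla2g7 (0.73), Mocos (0.70), Atp6v1a (0.70). The clusters share libraries and depth, and these values are a description without a test.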

How the data were processed

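Per the labels, single cells were captured with a droplet 3′ kit. The authors deposited 1 matrix of UMI counts per library, made with Cell Ranger 7.1.0 per the file headers; the submitters' processing notes name STAR and mm10. Cells with at least 200 genes and at most 20% mitochondrial UMIs were kept, and Scrublet calls were removed (315 with beta-elemene, 338 with vehicle). Both libraries were clustered together in scanpy 1.11.5 (2000 variable genes, 30 components, 15 neighbours, Leiden resolution 1.0, sub-clusters 0.6). UMIs were summed by class and library, with exact Poisson, binomial and conditional binomial 95% intervals. UMIs are counted once per molecule, and the intervals cover counting error only. The call rule was tested on simulated Poisson counts drawn around the profile of a class over both libraries. Such counts hold no spread between cells or libraries, so they cannot check the calls against it. Unchanged genes were called at 1.76% in neutrophils, 0.563% in macrophages, 0.732% in fibroblasts and 1.57% in T and NK cells.

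The members and lists were chosen with earlier results of these data known. Genes are named when they are members, called genes of the lists or, where none was called, at most 2 with the most UMIs, or 1 of the 3 genes most like a member. The genes most like Il1rn are not reported here. Several choices were made after values were seen. Of 5 amounts added to both sides of the fold that ranks cluster genes, 1, 10 and 25 CPM left 1 or more clusters led by another class's markers, and 50 CPM, which left none, was taken. The rule for sub-clusters carrying another lineage's markers (median marker level at least 10% of that lineage's own class) was the third form tried. The requirement that 50% of a name's markers be detected and the motifs were set in the same way. In the simulated counts a first bound on the share of unchanged genes called was exceeded and was then loosened, and the rule was kept as it stood. Malignant cells without sub-cluster 9, Nfkb1 in and outside sub-cluster 2 and list genes without mixed sub-clusters were computed after seeing the data.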

Additional observations from a re-analysis of the deposited data

Results flagged for a closer look

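The ratio of beta-elemene over vehicle pointed in opposite directions in different classes for both agonists. Il1a was 2.19 in dendritic cells and 0.374 in fibroblasts, and Il1b was 1.85 in T and NK cells and 0.631 in endothelial cells. Of these 4 ratios, 3 did not keep their direction or call. Dendritic Il1a was 0.930 at the finer clustering, and T and NK Il1b 0.934 with called doublets kept. Endothelial Il1b was 1.12 with called doublets kept and 0.941 without the sub-cluster led by Lyz2, Il1b and Ccl8. These differences between classes were not tested, and each rests on 1 library per group.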

How the results depend on the processing

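No paired analysis was possible because each group is 1 library, which also leaves no replicate to leave out. Higher calls of members, 5 in the report, numbered 3 with the stricter cell filter, with called doublets kept, at resolution 0.5, at resolution 2.0 and with members among the variable genes, and 2 by the mean over cells. Lower calls, 11 in the report, numbered 3 in the largest sub-cluster of each class alone. With at least 200 UMIs, which leaves fewer pairs, there were 3 higher and 4 lower, and at the lower fold limit tried 9 and 20. List genes, 22 higher and 34 lower, numbered 10 and 20 with at least 200 UMIs and 35 and 54 at that lower limit. The share of all genes called was not computed under these settings, so the counts cannot be set against it. Classes with the Il1rn interval below 1, 8 in the report, numbered 4 in the largest sub-cluster alone, 5 with at least 200 UMIs and 5 without mixed sub-clusters, a setting chosen after seeing the data. Those with the Il1b interval above 1, 7 in the report, numbered 4 in the largest sub-cluster alone. The direction turned for Il1a in dendritic cells (0.930) and Il1r1 in monocytes (1.01) at resolution 2.0, for Il1b in T and NK cells (0.934) and endothelial cells (1.12) with doublets kept, and for Il1rl1 in malignant cells (1.27) by the mean over cells. The cause was not tested. Il1b in neutrophils ranged from 1.14 to 1.25025 and in macrophages from 1.11 to 1.246 over 13 settings, and Il1rn from 0.773 to 0.814 and from 0.720 to 0.810. The class holding most UMIs was the same in 20 of 20 pairs of member and library under every reclustering tried. Malignant Il1b was 1.16 without sub-cluster 9, also chosen after seeing the data. Thin classes limit the small calls.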

Other observations

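Unnamed cluster 24, 16 cells with beta-elemene and 77 with vehicle at a median of 612 UMIs, had Il1rn among its leading genes, after Retnlg, Retnla and Serpinb2. Its Il1rn level was 3215 CPM with beta-elemene and 4585 CPM with vehicle, on 30 and 230 UMIs, above that of every named class. ILC2-like cells had 63 Il1b UMIs in 37 cells with beta-elemene and 10 in 35 cells with vehicle, a ratio of 4.37 (2.23 to 9.55) per UMI of those cells. Both were singled out after their values were seen.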
